A study of Mus musculus with 2 samples.

Results

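The Myc and Max network, a family of basic helix-loop-helix leucine zipper transcription factors, was examined in mouse embryonic stem (ES) cells that lived on either Baf53a or Baf53b. Its 10 genes, Myc, Mycn, Mycl, Max, Mga, Mnt, Mxd1, Mxd3, Mxd4 and Mxi1, were found on the array through the RefSeq accession of each gene probe. They were covered by 12 of 39429 gene probes. The rule for finding them uses names and no measured value, though the network was picked with earlier results of these data known. Both samples were Baf53a cKO ES cells, a single clone derived from E14 ES cells in which both alleles of Baf53a carry a deletion made with CRISPR/Cas9 and a Tet-repressible Baf53a cDNA keeps the cells alive. The cells were transfected with a vector for Myc-tagged Baf53a or Myc-tagged Baf53b and, 48 h later, were given 1 μg/mL Tet for 6 days, in medium with FBS and LIF. The group named Baf53a-expressing was the Baf53a rescue and the group named Baf53b-expressing was the Baf53b rescue, with 1 array each, so no difference has a replicate check and no test was run.

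Myc, Mycn and Mycl bind DNA as dimers with Max and activate genes of growth, among them those that build ribosomes. Max also pairs with Mnt, with the Mxd proteins and with Mxi1, which repress many of the same genes through Sin3 and histone deacetylases, and with Mga, which belongs to a Polycomb complex, PRC1.6, that represses germline genes in ES cells. Baf53a is known as a partner of c-Myc and as a subunit of the Tip60 complex, a histone acetyltransferase that Myc recruits. The comparison thus bears on whether the transcripts of this network were at the same level with either Baf53 form.

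The DNA element shared by these dimers is the E-box CACGTG, which reads the same on both strands, so that a search of one strand covers both. RefSeq promoter windows of GRCm38.p6, which reach from 250 bases before to 50 bases after a start site, were held for 9 of the 10 genes, all but Myc, in 11 windows. The E-box was in 1 window each of Max, Mnt and Mxd4. Over all 32851 windows of that length, 7.15% held it, and a match is a description of the letters and not a site of binding. The matches are printed here with 12 bases on either side and the E-box in capitals, because they are where a network member could be read by the network itself.
Max, chr12:76962234-76962263, minus strand: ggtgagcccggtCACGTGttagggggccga
Mnt, chr11:74830789-74830818, plus strand: ccccacccaagcCACGTGtgcgcgcgcggt
Mxd4, chr5:34187912-34187941, minus strand: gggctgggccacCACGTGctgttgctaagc
The first base of the E-box lay 3 bases upstream of the start site in Max, 123 bases upstream in Mnt and 219 bases upstream in Mxd4. Around the E-box these 3 stretches differ. The windows of Mycn, Mycl, Mga, Mxd1, Mxd3 and Mxi1 held no such letters.

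The 2 arrays shared 1 slide. Of 39411 probes with a usable spot, 29247 were well above background on both. Levels are given as log2 processed signal, where 0 is the 75th percentile of the array, a signal of 1161 for Baf53a- and 1128 for Baf53b-expressing cells. The labels were checked on the rescue genes: Actl6b (Baf53b) was well above background in Baf53b-expressing cells alone, where it was at least 14.5-fold higher, while Actl6a (Baf53a) stood at 1.71 and 1.67 and did not separate the samples. Where the Actl6a probe lies relative to the deletion, and to the coding region that the vector carries, was not examined. The label of the Baf53a rescue therefore has no check here. Of the markers, all 6 ES cell genes were well above background in both samples, with differences from -0.15 to 0.07. Primitive endoderm markers were also measured and all 4 were higher in Baf53b-expressing cells, by 0.21 to 0.40. Over all probes, 49.7% were higher. The spot SD, described below, was 0.0664 to 0.119 in the signal classes of these markers. In the class of Gata4 and Sox17, 14.3% of all probes differed by 0.21 or more in either direction. The summed level of the 4 markers was 1.46 times the 75th percentile signal in Baf53a- and 1.73 times in Baf53b-expressing cells. For the ES cell genes the sums were 159 and 147. Sums are read between the samples only, since probes differ in how well they hybridise, and give no share of cells. Each of the 4 neuronal and 4 fibroblast markers had a probe well above background on both arrays. Their differences ran from -0.15 to 0.25 and from -0.15 to 0.22. A further, dim probe of the neuronal genes Map2 and Rbfox3 was well above background in Baf53b-expressing cells alone. There the Map2 probe was 1.51-fold higher, the ratio of its 2 signals, and the Rbfox3 probe at least 1.23-fold higher. Levels this low lie in or below the dimmest signal class described below, where the spot SD was 0.274 on the log2 scale.

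Each member probe was printed as 1 spot, so the error beside a value is noise between spots. It was taken from 324 probes printed 10 times on each array and is the SD of a difference between 2 single spots, in 5 signal classes with equal numbers of probes. From the dimmest to the brightest class this spot SD was 0.274, 0.119, 0.0799, 0.0664 and 0.0590 on the log2 scale. It holds no noise of culture, labelling or hybridisation. The error estimate of the scanner software, given below with each signal, is wider and gives a difference of 2 spots an error of 0.20 to 0.22. Differences are Baf53b- minus Baf53a-expressing cells throughout, and levels of different probes are not compared, since probes differ in how well they hybridise.

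The activating members come first. Myc, the gene for c-Myc, gave a processed signal of 2663 ± 266 with Baf53a and 2603 ± 260 with Baf53b. On the scaled log2 axis that was 1.20 and 1.21, a difference of 0.0092 against a spot SD of 0.0664. The 2 samples were the same for Myc within spot noise, and 93.1% of the probes in its signal class differed by at least as much. Both vectors carry a Myc tag, and whether the Myc probe can detect the tag sequence was not examined. Mycn, the gene for N-Myc, the other form that is prominent in ES cells, gave 3944 ± 394 and 3714 ± 371, or 1.76 and 1.72 on the scaled log2 axis. Its difference was -0.0450, inside 1 spot SD of 0.0590. Mycl, the gene for L-Myc, was dim in both samples, with signals of 105 ± 10.8 and 124 ± 12.5. Its scaled values of -3.46 and -3.19 differed by 0.27, or 1.21-fold, which is 2.30 times the spot SD of 0.119. Of the probes in its signal class, 16.8% differed by at least as much. The wider error of the scanner software was 0.208 for the Mycl difference.

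Max, the partner with which Myc, Mycn and Mycl bind DNA, was even between the samples. Its signals were 7570 ± 757 with Baf53a and 7084 ± 708 with Baf53b, or 2.70 and 2.65 on the scaled log2 axis. The difference of -0.0539 lay inside 1 spot SD of 0.0590. The brightest signal class, which holds Max and Mycn, had a median difference of -0.0632 over all its probes. Max stood 0.0093 and Mycn 0.0182 above that class median. The class is wide, and Mycn lay near its dim edge, a mean log2 of 1.69. The class next to it had a median of -0.0193. After cyclic loess, given below, both genes were slightly below 0.

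**Figure D1:**
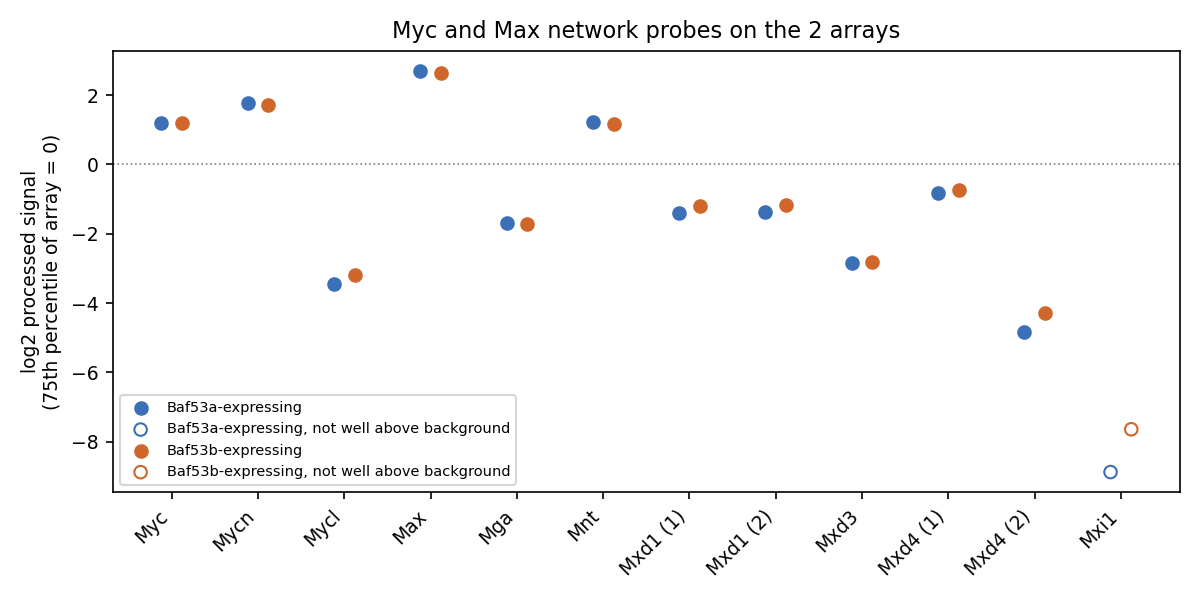
Scaled log2 processed signal (y axis, 0 is the 75th percentile of the array) of each member probe (x axis) in Baf53a-expressing (blue) and Baf53b-expressing cells (orange), 1 array each; open circles are not well above background. The pairs of points nearly coincide for Myc, Mycn, Max, Mga, Mnt and Mxd3, and Mxi1 is open on both arrays.

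Among the repressing members, Mga and Mnt were even between the samples. Mga, a large protein with a T-box as well as the helix-loop-helix domain, gave 363 ± 36.3 and 344 ± 34.5, a difference of -0.0336 against a spot SD of 0.0799. Mnt, which is found in most cells and opposes Myc there, gave 2728 ± 273 and 2534 ± 253. Its difference of -0.0646 was the lowest of the network, and 55.8% of the probes in its signal class differed by at least as much. Mxd3, a member of the Mxd family tied to dividing cells, gave 161 ± 16.3 and 160 ± 16.1, a difference of 0.0278 against a spot SD of 0.119.

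Mxd1 and Mxd4, which are known to come up as cells leave the cycle and differentiate, stood higher in Baf53b-expressing cells on every probe. The first Mxd1 probe gave 439 ± 44.0 in Baf53a- and 494 ± 49.5 in Baf53b-expressing cells, a difference of 0.21. The other gave 452 ± 45.2 and 505 ± 50.5, a difference of 0.20. The 2 probes of Mxd1 were thus 0.0093 apart in their differences, where the median gap over 3521 genes with 2 measured probes was 0.0979. Both exceeded 2 spot SD, at 2.66 and 2.54 times the SD of 0.0799, and 14.3% and 15.9% of the probes in that signal class differed by at least as much. The wider error of the scanner software was 0.204 for each of these differences, about as large as the differences. On average Mxd1 was 1.15-fold higher.
The 2 probes of Mxd4 did not give the same size. The brighter one gave 657 ± 65.8 and 680 ± 68.1, a difference of 0.0917, or 1.15 times its spot SD. The dimmer one gave 40.9 ± 4.61 and 58.1 ± 6.15, a difference of 0.55, or 4.61 times its spot SD, and 1.88% of the probes in its signal class differed by at least as much. This is a 1.46-fold higher signal and the widest difference of any member probe. By the scanner software, the error of this difference was 0.223. With levels of -4.83 and -4.28, this probe lay near the lower edge of its class, a mean log2 of -4.59. The dimmest class, which ends at that edge, had a spot SD of 0.274. Its differences were wider too, with an SD of 0.324 against 0.208. The multiple of 4.61 and the share of 1.88% thus depend on the class in which the probe falls. The gap of 0.456 between the Mxd4 probes was reached by 4.35% of the genes with 2 probes. Their mean, 0.32, therefore rests on the dim probe, and the value with the brighter probe alone was 0.0917. The primitive endoderm markers given above were higher in the same sample as Mycl, Mxd1 and Mxd4, and their part in these differences was not tested. In RNA of whole cultures, fewer cells that express a gene and less RNA of it per cell cannot be told apart.

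Mxi1, which encodes the remaining repressor, had 1 probe, named by 1 of the 12 RefSeq transcripts listed for the gene, and it was not well above background in either sample. Its processed signal was 2.46 ± 2.45 and 5.63 ± 2.38, so no fold is given. Whether this probe also reads the other Mxi1 transcripts was not examined.

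**Figure D2:**
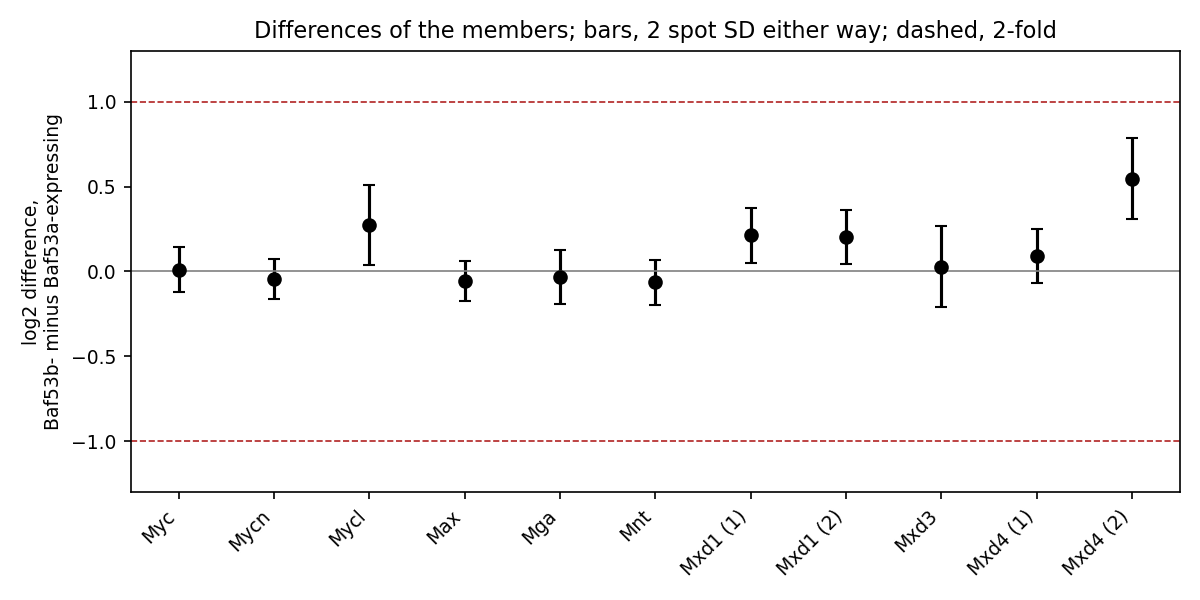
Log2 difference, Baf53b- minus Baf53a-expressing cells (y axis), of the 11 member probes well above background on both arrays (x axis); bars are 2 spot SD of the signal class of the probe and dashed lines mark 2-fold. The bars of Mycl, both Mxd1 probes and the dimmer Mxd4 probe lie above 0, and the other bars cross it.

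Over the network, 11 of 12 probes were measured on both arrays, 7 higher and 4 lower in Baf53b-expressing cells, against 49.7% of all probes higher and 50.3% lower. Beyond 1 spot SD lay 5 of 11, against 52.7% of all probes. None was 2-fold apart, where 0.253% of all probes were, 0.137% higher and 0.116% lower. A difference of at least 0.5 on the log2 scale was seen for 1 of 11, the dimmer Mxd4 probe, against 3.06% of all probes. Beyond 2 spot SD lay 4 of 11 member probes, all of them higher, against 22.4% of all probes in either direction and 11.1% higher. These 4 probes belong to 3 genes, since 2 of them measure Mxd1, and with so few probes the counts describe the network and set it apart from nothing. By gene, 5 of 9 were higher and 4 lower, against 49.1% of 16608 named genes higher and 50.9% lower, and the median was 0.0092 against -0.0032. By role, the 3 Myc genes ranged from -0.0450 to 0.27 and the 5 measured repressors from -0.0646 to 0.32. With 2 arrays no likeness of pattern between genes can be measured, and no gene is named for it.

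**Figure D3:**
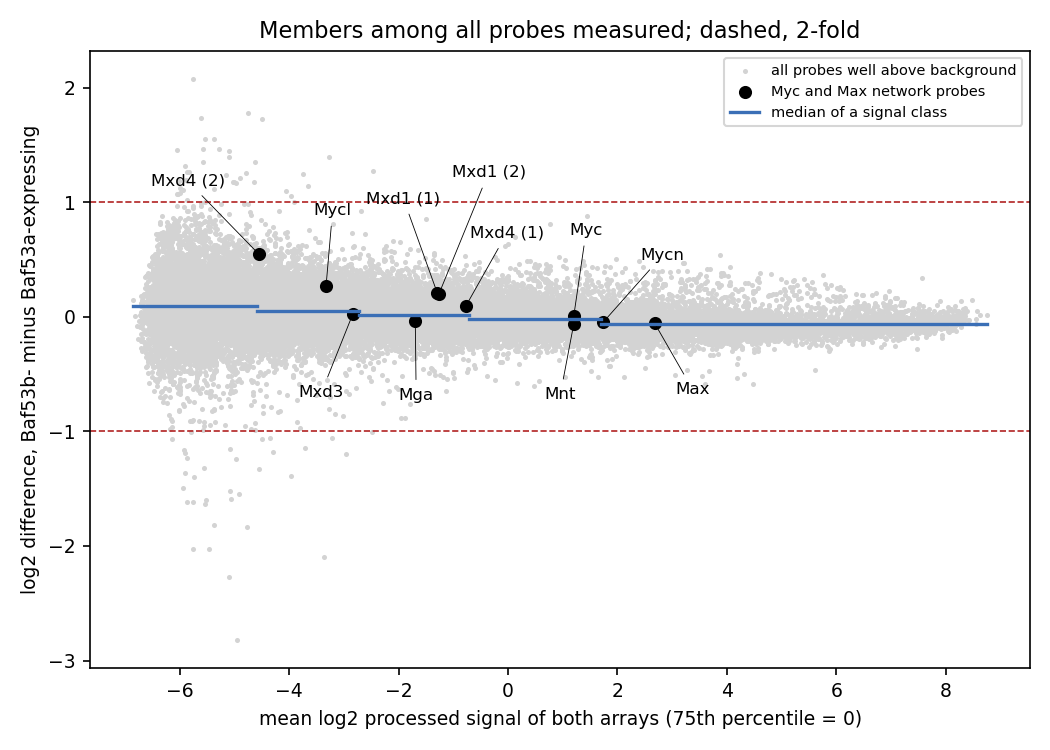
Log2 difference, Baf53b- minus Baf53a-expressing cells (y axis), against the mean scaled log2 signal of both arrays (x axis) for the 29247 probes well above background on both (grey) and the member probes (black); blue lines are the median of each signal class and dashed lines mark 2-fold. All member probes lie inside the dashed lines, and the dimmer Mxd4 probe sits highest among them.

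The medians of the signal classes ran from 0.0976 in the dimmest to -0.0632 in the brightest, a trend with signal that touches every dim or bright gene named here. After cyclic loess, which removes such a trend, Mycl was higher by 0.21, Mxd1 by 0.19 and Mxd4 by 0.27. These 3 genes were higher under all 11 settings run. Mycn, Max, Mga and Mnt were lower under all 11, and the lowest value was -0.12, for Mnt with arrays centred on the median. After cyclic loess Mycn stood at -0.0048, Max at -0.0071, Mnt at -0.0300 and Mga at -0.0556. Each of these was smaller than the spot SD of its signal class. All settings reuse the same arrays, so a sign that is kept across them is no replicate of a difference. Myc turned to -0.0418 when the arrays were centred on the median, and Mxd3 was below 0 under that setting, quantile normalization and cyclic loess. With normexp, a background correction that draws dim signals together, Mycl was higher by 0.14.

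**Figure D4:**
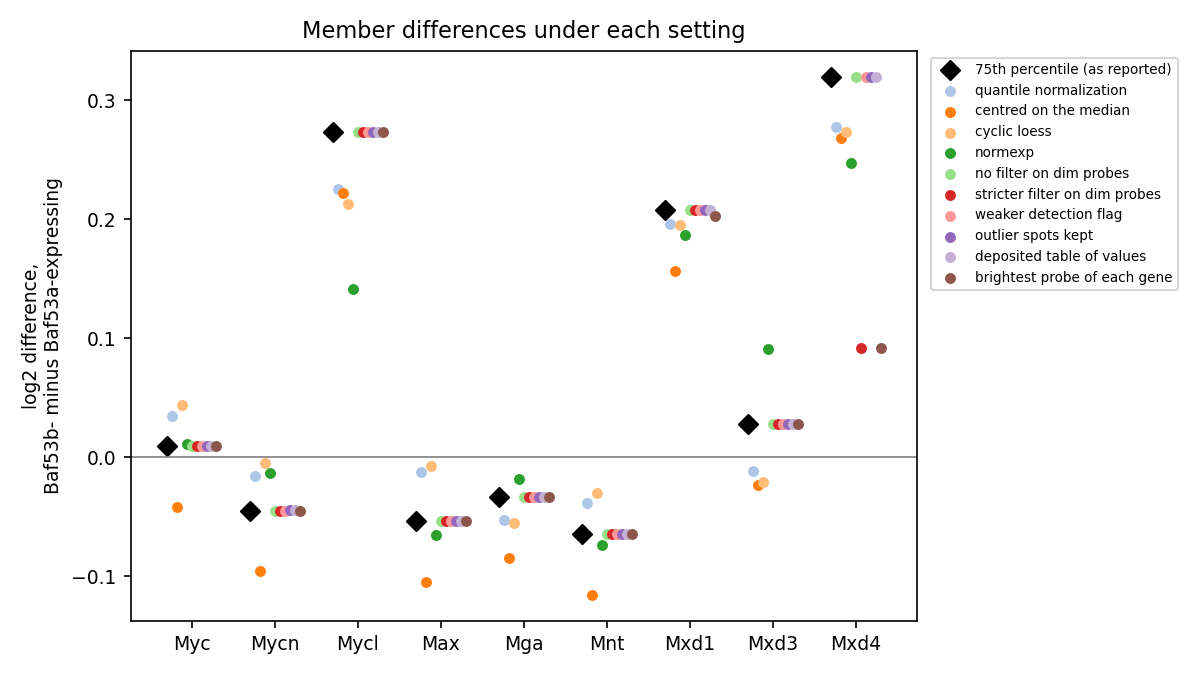
Log2 difference, Baf53b- minus Baf53a-expressing cells (y axis), of the 9 measured members (x axis) under the setting reported (black diamonds) and each alternative (coloured points). Mycl, Mxd1 and Mxd4 stay above 0 in every setting, and Mxd4 falls to 0.0917 where its dim probe is left out.

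The genes around the network were read in 10 lists with 128 genes, of which 126 were measured on both arrays. None was at least 0.5 apart on the log2 scale, against 2.35% of all named genes. This contrast is not matched for signal, and most of the listed genes have bright probes. Over all probes, the SD of the differences was 0.324 in the dimmest signal class and 0.108 in the brightest. The contrast therefore does not show that the listed genes were steadier than other genes of like signal. The Mlx arm is the sister network of Max: Mlx stood at -0.0553, its partner Mlxip (MondoA) at -0.11 and Mlxipl (ChREBP), a sensor of sugar, at 0.0634, with -0.03 and 0.15 from its 2 probes.
Of 16 cofactors that Myc uses to activate genes, 5 were higher and 11 lower, with a median of -0.0539 and of -0.0071 after cyclic loess. The 11 include Actl6a (Baf53a), the gene mutated in these cells, at -0.0382. The lowest were Ruvbl2 at -0.28 and Ccnt1 at -0.14, an ATPase of the Tip60 complex and the cyclin of the elongation kinase Cdk9. The highest were the acetyltransferases Crebbp at 0.26 and Ep300 at 0.15. Kat5, which encodes Tip60 itself, stood at 0.0170 and Trrap, the scaffold that contacts Myc, at 0.0442. Of 8 genes measured that act on the stability or activity of Myc, 6 were higher, with a median of 0.0407, which turned to -0.0446 when the brightest probe stood for each gene, to -0.0104 under median centring and to -0.0147 with the stricter filter on dim probes. Stub1 (-0.0673) and the kinase Aurka (-0.0434) were the lowest, and the ubiquitin ligase Huwe1 stood at 0.0702.

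On the repressing side, 7 of 13 corepressor genes used by Mxd and Mnt were higher, with a median of 0.0236, which turned to -0.0275 with arrays centred on the median, to -0.0164 with the stricter filter and to -0.0282 with the brightest probe of each gene. Sin3a, the scaffold that the Mxd proteins bind, stood at -0.12 and Sap30, another subunit of that complex, also at -0.12. Rbbp7 stood at 0.16, and Rbbp4 at 0.28 from probes as far apart as -0.03 and 0.59. Of 11 partners of Mga and Max in PRC1.6, 8 were higher, with a median of 0.0390, which turned to -0.0121 with arrays centred on the median. L3mbtl2, the reader protein that marks this complex, stood at 0.34, with levels of -0.67 (Baf53a) and -0.32 (Baf53b), against a spot SD of 0.0664. It was the highest gene of all 10 lists. Tfdp1 followed at 0.0681, and the ubiquitin ligases Rnf2 and Ring1 were the lowest, at -0.0969 and -0.0904.
All 12 germline genes listed as repressed with Mga and Max were well above background on both arrays, as were 29247 of 39411 probes. In both samples 7 of them stood above the 75th percentile, which by definition 75% of an array's probes do not exceed. All 27 Myc targets of ribosome assembly and all 8 genes that Myc represses, read below, also passed the flag. Of those, 25 and 2 stood above that percentile. Of the 12 germline genes, 9 were higher, with a median of 0.0716 that stayed above 0 under all 11 settings. Stra8, the switch into meiosis, had levels of 0.80 and 1.07, a difference of 0.26 against a spot SD of 0.0664. Stk31 had levels of 0.28 and 0.48, a difference of 0.20 against the same SD. The cohesin subunit Stag3 had levels of 1.67 and 1.59, a difference of -0.0794 against that SD. Tdrd1 was in the dimmest signal class, with levels of -6.23 and -6.50, and its difference of -0.26 lay inside 1 spot SD of 0.274. In their promoter windows, 9 of the 12 genes (75%) held the E-box, against 8.09% of all genes with a window. The list was picked as genes repressed with Mga and Max, whose dimers share the E-box, so this contrast is no independent finding. The 3 genes that both hold the E-box and are named here are shown for the letters around it, with the E-box in capitals.
Stk31, chr6:49395472-49395501, plus strand: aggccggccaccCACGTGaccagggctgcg
Tdrd1, chr19:56826186-56826215, plus strand: tggggctgcgcgCACGTGggagtaaactgc
Stag3, chr5:138280327-138280356, plus strand: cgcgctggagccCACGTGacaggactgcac
The 9 genes with the E-box had a median difference of 0.0573 and the 3 without it 0.11, and with 3 genes this split shows nothing about the E-box.

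The genes that Myc activates were read in 3 lists. Of 27 genes of the nucleolus and ribosome assembly, 20 were lower and 7 higher, with a median of -0.0438. These are mostly bright probes, and the median turned to 0.0047 after cyclic loess and was also above 0 under quantile normalization. The lowest were Nop2 at -0.17, a methyltransferase of ribosomal RNA, and Tcof1 at -0.17, a factor for transcription of ribosomal DNA. The highest were Rrp12 at 0.13 and nucleolin (Ncl) at 0.0664. Of 16 metabolic targets, 11 were lower, with a median of -0.0429 that moved to -0.0014 after cyclic loess and just above 0 under quantile normalization. Shmt2, of mitochondrial one-carbon metabolism, stood at -0.15, and the spermidine synthase Srm at -0.10. Odc1, a classic target of Myc in polyamine synthesis, stood at 0.10 and Gart, of purine synthesis, at 0.11. Of 12 targets in the cell cycle and translation, 8 were lower, with a median of -0.0479 that moved to -0.0187 after cyclic loess and to -0.0136 under quantile normalization, and was below 0 under all 11 settings. Mcm5, of the replicative helicase, stood at -0.19 and Cdk4 at -0.16, and the cyclin gene Ccnd2 at 0.0413 and Eif4e at 0.0307 were the highest.
Of 8 genes that Myc represses, 6 were higher, with a median of 0.0934 that stayed above 0 under all 11 settings. Cdkn2b (p15) stood at 0.18 and Cebpa at 0.17, while Ndrg2 stood at -0.0091 and Cdkn1a (p21) at -0.0291. No list was tested, and the sign of a median this close to 0 describes these 2 arrays only.

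**Figure D5:**
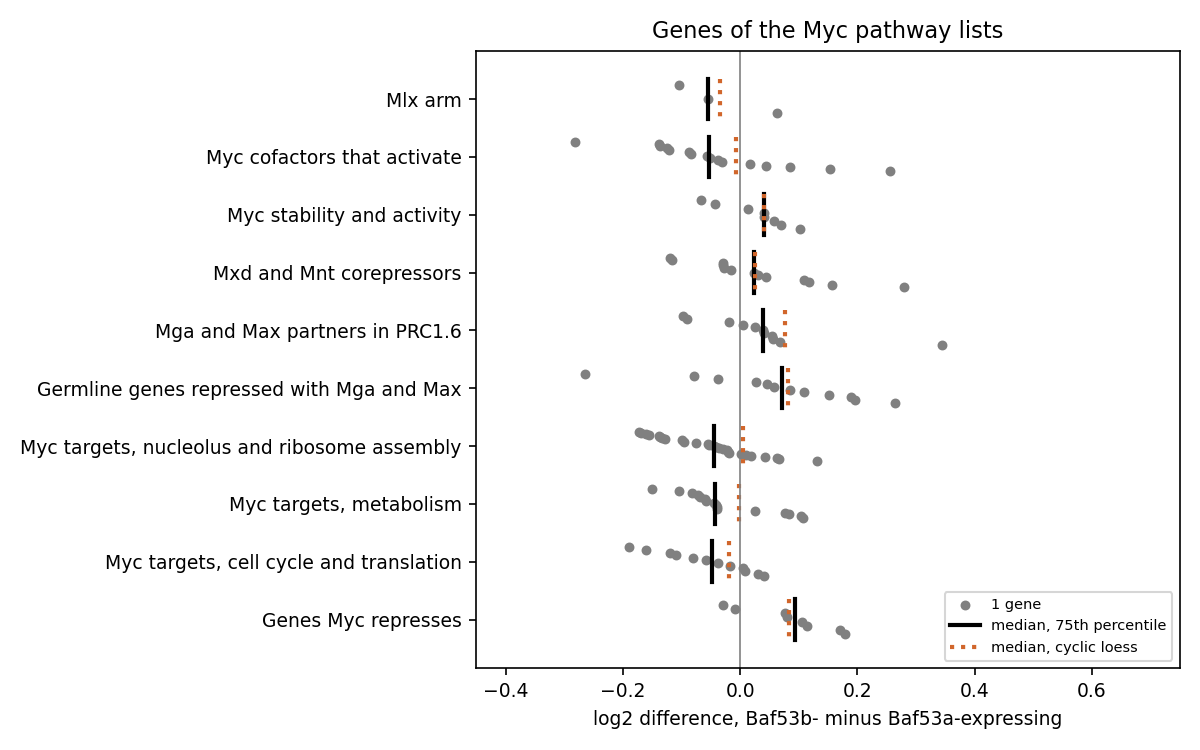
Log2 difference, Baf53b- minus Baf53a-expressing cells (x axis), of each measured gene (grey points) in the 10 lists (y axis), with the median as reported (black lines) and after cyclic loess (dotted orange lines). The lists of Myc targets for ribosome assembly and metabolism move to about 0 with cyclic loess, and no gene reaches 0.5.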

How the data were processed

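RNA of 1 culture per group was labelled with Cy3 and hybridised to Whole Mouse Genome arrays. The authors extracted the images with Agilent Feature Extraction 11.0.1.1 and deposited the processed intensity of each spot, after background subtraction and spatial detrending, for a probe design built on mm9. A second deposited table, by the authors, holds each value as a ratio. For 100% of 30479 probes it equalled the processed signal divided by 1 number per array within 0.1%. No spot was saturated. The lowest signal well above background was 8.45 on the array of Baf53a- and 9.75 on that of Baf53b-expressing cells, and the number of arrays limits the precision.

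Control and outlier spots were dropped. Spots of a probe were averaged as log2 values, which were then set relative to the 75th percentile of their array. The flag for well above background had to be on 50% or more of a probe's spots. A gene's value is the mean of its probes measured on both arrays. Where a probe was seen on 1 array only, its fold is a lower bound against the lowest signal well above background on the other array. If the probe's own signal there was higher than that, the fold is the ratio of its 2 signals. Symbols came from RefSeq accessions in a gene table of GRCm38.p6, which named 27410 probes and was used for names only. All members were named, and of each list the 2 highest and 2 lowest genes, or all of a list of 3, except 1 gene that is not reported here. Actl6a and Actl6b were named as a check, and Kat5 and Trrap were chosen after their values were seen. The members and lists were chosen with earlier results of these data known. The settings tried instead were cyclic loess, quantile normalization, median centring, normexp with an offset of 50 on median signals, 3 other filters on dim probes, outlier spots kept, the deposited table and the brightest probe of each gene. Python 3.11.15, numpy 2.4.6, pandas 2.3.3, R 4.3.3 and limma 3.58.1 were used, and the steps were tested on simulated data.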

Additional observations from a re-analysis of the deposited data

How the results depend on the processing

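No paired analysis was possible because each condition had a single array, so leaving out a replicate could not be done either. The median over the members, 0.0092, ranged from -0.0418 with arrays centred on the median to 0.0185 without the filter on dim probes, and it was also below 0 under quantile normalization and cyclic loess. Without that filter Mxi1 entered with 1.24, a value from signals not well above background. Mxd4 moved to 0.0917 with the stricter filter and with the brightest probe, since either leaves out its dim probe. Under normexp Mycl moved to 0.14 and the dim Mxd4 probe to 0.36. Over all gene probes, 40 exceeded 2-fold upward and 34 downward with Baf53b. These counts were 847 and 490 without the filter, 494 and 260 with the weaker flag, 1 and 1 with the stricter filter, and 0 and 2 under normexp, and 53 were lower under quantile normalization. Which probes enter differs by construction between the filters. For normexp and quantile normalization the cause was not tested.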

Other observations

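Genes were also read by the E-box alone. Of the named genes with a promoter window that were measured on both arrays, 1410 held CACGTG and 11783 did not. In Baf53b-expressing cells, 662 of the former and 5728 of the latter were higher, with medians of -0.0112 and -0.0058 on the log2 scale. Among the Myc targets of ribosome assembly, the 6 genes with the E-box had a median of -0.0098 and the 16 without it -0.0540. These are values of 1 array against 1 array.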
